A study of Homo sapiens with 20 samples.

Results

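The matrix metalloproteinase cluster on chromosome 11 was described at the RNA level in U2-OS cells, a human osteosarcoma line. Its members were taken by name and chromosomal place, a rule that uses no measured value although earlier results of these data were known when it was set. They are MMP1, MMP3, MMP7, MMP8, MMP10, MMP12 and MMP13. Of these 7 genes, 6 were among the 20314 genes of the count table, and MMP12 was not analysed here. After a filter on low counts 5 of the 6 were among the 14992 genes tested, and MMP8 was not.

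Each of 4 conditions was represented by 5 RNA-seq libraries, 20 in all. The study describes those of untreated and irradiated cells as biological replicates, and its methods state that RNA samples were prepared in quintuplicates. Cells were left untreated, harvested 90 min after irradiation (IR) with 20 Gy, harvested 7 days after the same dose, or not irradiated but given an shRNA against NFKBIA, the gene of the NF-κB inhibitor IκBα. The irradiated cells were timed so that all groups were harvested together. The study's methods describe shRNA vectors selected with puromycin, doxycycline to induce the inducible ones, and a scrambled shRNA as control. No library used here is labelled as scrambled, and the labels of the untreated cells name neither vector nor doxycycline. Effects of vector, selection and induction can therefore not be told apart from those of the knockdown. All values come from 1 cell line in culture.

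The proteins of the cluster are secreted, zinc-dependent proteases that are made as inactive proenzymes and cut components of the extracellular matrix. MMP1, MMP8 and MMP13 are the interstitial collagenases, which can cleave the triple helix of fibrillar collagen. MMP3 and MMP10 are stromelysins with broad substrate ranges, and they also activate other proenzymes. MMP7 is matrilysin, a short enzyme best known from epithelia, and MMP12 is the elastase of macrophages. Several of these genes are textbook targets of AP-1, of NF-κB and of inflammatory cytokines. MMP1, MMP3 and MMP10 are commonly listed among the factors that senescent cells secrete, and MMP13 is a collagenase of cartilage and bone.

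The genes lie side by side and are read from the same strand. In GENCODE 29 the order along chromosome 11 is MMP7, MMP20, MMP27, MMP8, MMP10, MMP1, MMP3, MMP12 and MMP13, all on the minus strand, with the pseudogene WTAPP1 on the plus strand across MMP10, MMP1 and MMP3. Exons of WTAPP1 cover 150 of the 1970 exon bases of MMP1 (7.61%), 32 of the 2048 of MMP3 (1.56%) and 0 of MMP10. The libraries were stranded according to the methods, but the strand setting of the counting was not given in the sources used here. WTAPP1 was not analysed here. No stretch of 100 bases was shared between the transcripts of different members, and 4 of 1871 such stretches of MMP1 matched WTAPP1 in antisense.

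The RefSeq promoter table (GRCh38.p14) matched 3 of the 7 members, MMP7, MMP8 and MMP10. The 250 bases before the start of MMP10 and MMP7 are printed 5′ to 3′ because both hold 1 copy of the AP-1 motif in the same position, while the 7 days libraries lay above all others for MMP10 and overlapped the untreated ones for MMP7. Capitals mark the AP-1 motif, TGANTCA, where N is any base.
MMP10 (chr11:102780629-102780878, minus strand): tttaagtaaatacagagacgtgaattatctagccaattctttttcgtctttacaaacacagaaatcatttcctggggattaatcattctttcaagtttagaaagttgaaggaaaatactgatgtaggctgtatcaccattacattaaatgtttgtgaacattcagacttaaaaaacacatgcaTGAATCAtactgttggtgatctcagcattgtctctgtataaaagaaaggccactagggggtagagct
MMP7 (chr11:102530748-102530997, minus strand): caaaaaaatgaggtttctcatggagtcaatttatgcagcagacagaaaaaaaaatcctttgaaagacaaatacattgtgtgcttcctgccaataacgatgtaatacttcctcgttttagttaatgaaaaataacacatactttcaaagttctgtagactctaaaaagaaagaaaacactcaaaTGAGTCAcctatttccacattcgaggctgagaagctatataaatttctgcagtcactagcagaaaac

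The AP-1 motif begins 67 bases upstream of the start in both genes, and a TATAAA motif on the sense strand lies at 30 bases in MMP7 and at 31 in MMP10. Searched on both strands, AP-1 letters occur in the same window of 6.57% of the 35116 promoters of the table, and TATAAA on the sense strand in 6.8%. The PEA3 motif AGGAAG, bound by ETS factors, occurs 2 times in the MMP7 window, at 169 and 145 bases upstream on the opposite strand, and not in that of MMP10 (28.7% of all promoters). The letters of the NF-κB motif were in none of the 3 windows and in 5.21% of all promoters. The MMP8 window held neither AP-1 nor PEA3 letters, and its TATAAA lay 110 bases upstream. The motifs searched do not overlap one another in these windows.

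The libraries held 22535659 to 40390961 reads on genes, and untreated replicate 5 was the shallowest. This library also correlated least with its own group (median r 0.978, against at least 0.989 in the others). Levels are given as CPM, the reads on a gene relative to all reads on genes of that library after scaling by TMM. NFKBIA was at 31.3 ± 7.25 CPM (SD, n = 5) in untreated cells, 82.1 ± 5.27 at 90 min, 30.8 ± 1.59 at 7 days and 12.1 ± 0.667 in the knockdown, so that the targeted gene was low in the libraries of that label. Of 8 osteoblast markers, RUNX2, COL1A1, SPARC and ALPL exceeded a mean of 1 CPM in every group. BGLAP did so only in untreated cells and at 90 min, and COL1A2 in no group. SP7 had 0 to 3 counts and IBSP 0 to 1 in any library. The markers summed to 3995 to 4734 CPM in untreated cells and 3665 to 3975 at 90 min. At 7 days they summed to 2688 to 3106 CPM, and in the knockdown to 2793 to 2960. Their part in the results for the cluster was not tested. The groups were spread over 5 sequencing lanes, and untreated cells shared no lane with the 7 days or the knockdown libraries.

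Calls of higher or lower required an absolute log2 fold change above 0.5 and an adjusted p under 0.05 in edgeR's quasi-likelihood test over all genes. Of the 5 cluster genes tested, 3 were called higher and 1 lower at 7 days post-IR against untreated cells, where 31.1% of all tested genes were called (16.7% higher and 14.4% lower). In the NFKBIA knockdown 1 was higher and 1 lower, with 12.7% of all genes called (5.18% higher and 7.53% lower). At 90 min none of the 5 was called, with 3.66% of all genes called (2.08% higher and 1.57% lower). None of the 5 reached an unadjusted p under 0.05 at 90 min, and DESeq2 called 0. MMP1 and MMP10 passed the filter only through their 7 days libraries and therefore had to differ there, so these counts support nothing on the cluster as a whole. MMP7 passed with 0 knockdown libraries over the cutoff, so its call in the knockdown has a like limit. Libraries did not overlap between groups for 44.8% of all genes at 7 days, 24.1% in the knockdown and 12.3% at 90 min, each against untreated cells, and for 4, 2 and 0 of the 5 cluster genes. Without untreated replicate 5 the numbers of cluster genes called were again 4 at 7 days, 2 in the knockdown and 0 at 90 min. With only the groups compared, the number in the knockdown was 1 (MMP13), since MMP7 did not pass the filter. Numbers that moved with sequencing lane as a factor are given in the closing section.

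**Figure D1:**
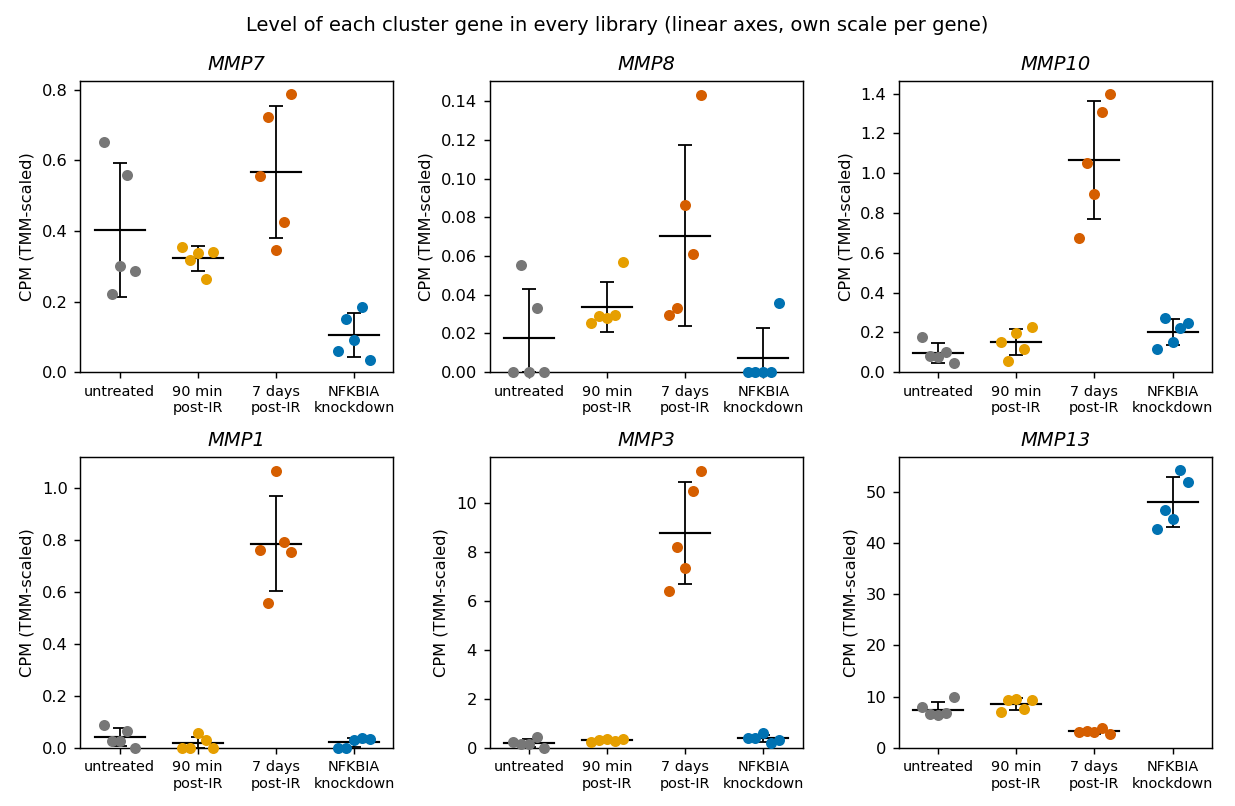
Level of the 6 cluster genes in each of the 20 libraries, in CPM on linear axes with a scale of its own per gene. Points are libraries, long bars the mean of 5 and error bars the SD, drawn down to 0 where it would pass below. MMP1, MMP3 and MMP10 are high in the 7 days libraries, whereas MMP13 is high in the knockdown (42.8 to 54.3 CPM) and low at 7 days (2.72 to 3.90 CPM).

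Among the collagenases, MMP13 was the cluster gene with the highest level in untreated cells. It fell at 7 days post-IR and rose several-fold in the knockdown. The untreated libraries stood at 7.87, 6.61, 6.30, 6.72 and 9.85 CPM, from 204 to 265 counts. At 90 min post-IR the values were 7.01, 9.28, 9.51, 7.499 and 9.26 CPM, which overlapped the untreated range. At 7 days post-IR they were 3.07, 3.19, 2.999, 3.90 and 2.72 CPM. Every 7 days library lay below every untreated library, although 76 to 128 reads stood behind each value. The knockdown libraries stood at 42.8, 46.5, 44.7, 54.3 and 52.0 CPM, with 1453 to 1532 counts each. Every knockdown library thus lay above every library of the other 3 groups.

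The change of MMP13 in the knockdown against untreated cells was 2.70 on the log2 scale (SE 0.12, 95% confidence interval 2.46 to 2.94), a 6.50-fold higher level (edgeR, adjusted p = 4.68e-13). At 7 days post-IR the change against untreated cells was −1.21 (SE 0.13, interval −1.49 to −0.94, edgeR, adjusted p = 7.45e-08), which is 2.32-fold lower. The 2 groups used the same untreated libraries, and the direct comparison of 7 days with the knockdown gave −3.91 (SE 0.13, edgeR, adjusted p = 5.63e-16), or 15.1-fold. At 90 min the change was 0.20 with an interval from −0.04 to 0.45 (edgeR, adjusted p = 0.246). Without untreated replicate 5 it was 0.30 (edgeR, adjusted p = 0.0348), which is under the fold threshold and was not called. Ordered by mean level, the knockdown (48.0 ± 4.91 CPM, SD, n = 5) was followed by 90 min (8.51 ± 1.16), untreated (7.47 ± 1.45) and 7 days (3.17 ± 0.438). Only the neighbours 90 min and untreated did not differ beyond their spread.

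MMP1, the collagenase of fibroblasts, was at or near 0 in every group except 7 days post-IR. The untreated libraries held 3, 1, 1, 2 and 0 counts. The libraries at 90 min held 0, 0, 2, 1 and 0, and those of the knockdown 0, 0, 1, 1 and 1. At 7 days post-IR the counts were 26, 17, 37, 26 and 21, at 0.786 ± 0.182 CPM (SD, n = 5), with no overlap with any other group. No library of the other groups held more than 3 counts, so folds were set against 3 counts in each library and are lower bounds. MMP1 was at least 8.04-fold higher than in untreated cells, at least 9.36-fold higher than at 90 min and at least 8.10-fold higher than in the knockdown. Since the gene passed the filter only through these libraries, its fits across genes are given no p. The two-sided exact permutation test, run on each member whatever the filter, gave p = 0.00794 against each other group, unadjusted and the smallest that 5 libraries against 5 can give. No fold is given among the 3 low groups, since both sides were at the floor. Reads from the antisense WTAPP1 over the shared exon bases could enter this gene if counting ignored strand.

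MMP8, the collagenase of neutrophils, had too few reads to be tested across genes. It held 0 to 2 counts in untreated libraries, 1 or 2 at 90 min, 1 to 4 at 7 days and 0 or 1 in the knockdown. A two-sided exact permutation test of log2 CPM gave p = 0.0476 for 7 days against untreated cells, 0.0238 for 7 days against the knockdown and 0.0397 for the knockdown against 90 min (n = 5 each). These p-values are unadjusted and come from 36 such comparisons (6 genes, 6 pairs of groups). The groups overlapped in each comparison and differed by a few reads, so no fold was computed. Summed markers of neutrophils were higher at 7 days as well, at 0.526 to 0.865 CPM, against 0 to 0.194 in untreated cells, 0 to 0.141 at 90 min and 0.0303 to 0.257 in the knockdown. Of the 6 markers 2 or 3 were at 0 in all libraries of a group, S100A8 in every group, while S100A9 held 8 to 21 counts at 7 days and 0 or 1 in untreated cells. Their part in the counts of MMP8 was not tested.

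The stromelysin MMP3 rose at 7 days post-IR to the highest level of the cluster per unit of length in that group. In untreated cells the 5 libraries held 8, 6, 6, 13 and 0 counts, which is 0.238, 0.166, 0.150, 0.428 and 0 CPM. At 90 min they held 10, 11, 13, 9 and 12 counts, and in the knockdown 14, 13, 20, 5 and 9. These 3 groups overlapped. At 7 days post-IR the libraries held 219, 250, 255, 344 and 316 counts, which is 6.41, 8.21, 7.35, 10.5 and 11.3 CPM. The lowest 7 days library lay far above the highest library of the other groups, which was a knockdown library with 0.598 CPM.

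Against untreated cells the log2 fold change of MMP3 at 7 days was 5.39 (SE 0.27, interval 4.82 to 5.96), a 41.9-fold higher level (edgeR, adjusted p = 4.74e-13). The change against 90 min was 4.81 (SE 0.25, edgeR, adjusted p = 8.3e-13) and against the knockdown 4.47 (SE 0.25, edgeR, adjusted p = 2.32e-12). In the knockdown MMP3 stood at 0.381 ± 0.151 CPM (SD, n = 5) against 0.196 ± 0.156 in untreated cells. That difference was 0.92 on the log2 scale with an interval from 0.02 to 1.82 and did not pass the test (edgeR, adjusted p = 0.0956). It passed with DESeq2 (adjusted p = 0.0289) and without untreated replicate 4, the highest of its group (1.32, edgeR, adjusted p = 0.0268). In order of mean level, 7 days (8.75 ± 2.08 CPM) was followed by the knockdown, 90 min (0.308 ± 0.0482) and untreated, and no neighbours among the last 3 differed beyond their spread.

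MMP10, the second stromelysin, rose at 7 days post-IR as well, from a lower level. Untreated libraries held 6, 3, 3, 3 and 1 counts, and those at 90 min 6, 2, 7, 4 and 8. The knockdown libraries held 4, 9, 5, 6 and 7 counts. At 7 days the counts were 23, 32, 31, 43 and 39, or 1.06 ± 0.297 CPM (SD, n = 5) against 0.0965 ± 0.0493 in untreated cells. Every 7 days library was above all others. The log2 fold change against untreated cells was 3.36 (SE 0.31), a 10.3-fold higher level. This is a description, because the gene passed the filter only through its 7 days libraries. The two-sided exact permutation test gave p = 0.00794, unadjusted and the smallest possible here. The knockdown differed from untreated cells by 0.98 (interval 0.07 to 1.89, edgeR, adjusted p = 0.0794), with 23 of 25 pairs of libraries in that direction. Among the fits across genes this passed only without untreated replicate 1 (1.31, edgeR, adjusted p = 0.0362). The exact permutation test gave p = 0.0317, unadjusted and from 36 such comparisons.

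The order of mean levels of MMP10 was that of MMP3. The knockdown (0.202 ± 0.0658 CPM) was followed by 90 min (0.150 ± 0.0665) and untreated cells, with overlap between these neighbours. MMP10 against 90 min changed by 2.78 at 7 days (SE 0.28) and by 2.38 against the knockdown (SE 0.27), with the same limit on both values.

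MMP7, the matrilysin, fell in the knockdown and was not called at either time after IR against untreated cells. The untreated libraries held 22, 8, 12, 17 and 6 counts, and those at 90 min 14, 11, 12, 9 and 12. At 7 days the counts were 19, 22, 12, 14 and 22, which overlapped both. The knockdown libraries held only 2, 5, 3, 5 and 1 counts, and all of them lay below the libraries of the other groups in CPM. MMP7 stood at 0.104 ± 0.0622 CPM in the knockdown and 0.404 ± 0.190 in untreated cells (SD, n = 5), a change of −1.94 on the log2 scale (SE 0.41). This is a description, because the gene passed the filter with 0 knockdown libraries over the cutoff. The two-sided exact permutation test gave p = 0.00794, unadjusted and the smallest possible here. With sequencing lane in the model the change was −1.72 and no longer called, a fit that rests on 1 library on each side, so that no p is given. Fitted on these 2 groups alone, MMP7 did not pass the filter.

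At 7 days MMP7 stood at 0.568 ± 0.188 CPM, and the change against untreated cells was 0.46 with an interval from −0.13 to 1.06 (edgeR, adjusted p = 0.163). It passed without untreated replicate 1 (0.72, edgeR, adjusted p = 0.0398). Against 90 min (0.323 ± 0.0358 CPM) the change was 0.78 (SE 0.29, edgeR, adjusted p = 0.0254), in 24 of 25 pairs of libraries. With sequencing lane in the model the change was 1.06 and not called (edgeR, adjusted p = 0.0692), and within lane 4, with 2 libraries each, it was 1.04 and called (edgeR, adjusted p = 0.0206). The call was also lost without 90 min replicate 4, 7 days replicate 2 or 7 days replicate 5 (edgeR, adjusted p = 0.0627, 0.079 and 0.0781). In the order 7 days, untreated, 90 min and knockdown, only the last 2 neighbours differed beyond their spread.

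Some epithelial markers were lower together with MMP7 in the knockdown, and some were lower without a fall of MMP7 at 7 days. Of the 6 markers 4 were called lower in the knockdown (7.53% of all genes), and their summed level was 635 to 705 CPM there against 634 to 1114 in untreated cells. Most of that sum was KRT18, at 500 ± 105 CPM in untreated cells and 471 ± 16.8 in the knockdown, and KRT8, at 339 ± 67.7 and 207 ± 11.1. KRT14 was at 4.82 ± 0.802 CPM in untreated cells and 0.491 ± 0.0938 in the knockdown, and CDH1 at 1.83 ± 0.515 and 0.440 ± 0.134. EPCAM was at 3.40 ± 0.708 and 3.01 ± 0.249, and KRT5 at 0.456 ± 0.157 and 0.0577 ± 0.0440. At 7 days 5 of the 6 were called lower (14.4% of all genes), with 658 to 690 CPM in sum, while MMP7 was not lower. None of the 6 was at 0 throughout any group. Their part in the result for MMP7 was not tested.

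**Figure D2:**
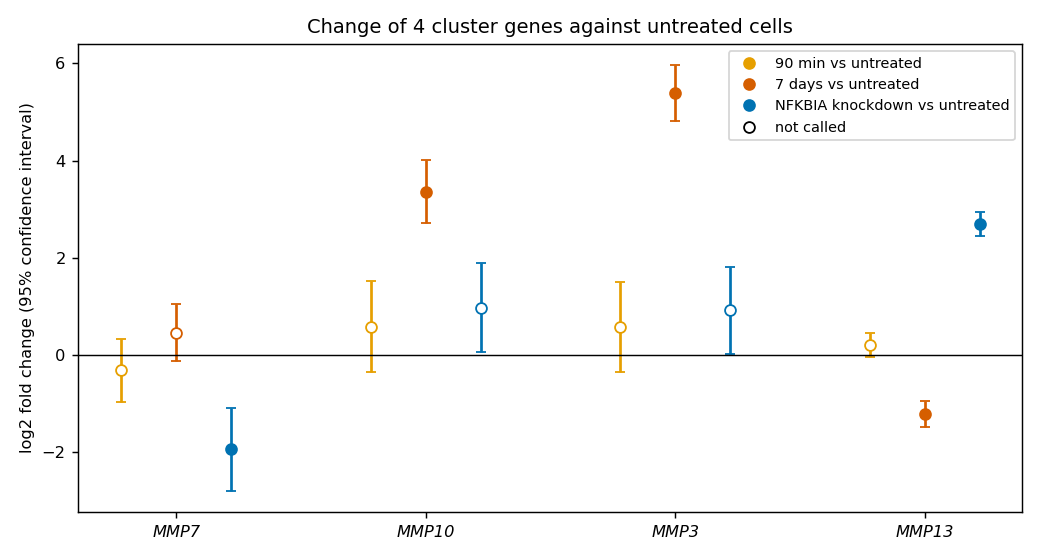
Log2 fold change against untreated cells of MMP7, MMP10, MMP3 and MMP13 at 90 min, at 7 days and in the NFKBIA knockdown, with 95% confidence intervals. Filled points were called by edgeR and open points were not. MMP10 passed the filter only through its 7 days libraries, and MMP7 with 0 knockdown libraries over the cutoff. MMP3 stands at 5.39 and MMP10 at 3.36 at 7 days, MMP13 lies on opposite sides of 0 at 7 days (−1.21) and in the knockdown (2.70), and MMP1 is left out because its fold is a lower bound.

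The remaining pairs of groups were compared directly as well. Against 90 min, 4 of the 5 genes were higher at 7 days and 1 was lower, where 29.3% of all genes were called (16.8% higher and 12.6% lower) and 61.8% did not overlap. Against the knockdown the counts were likewise 4 and 1, with 25.7% of all genes called (15.8% higher and 9.89% lower) and 60.7% without overlap. In both, MMP1 and MMP10 are among the 4 and had to differ, because of the filter. For MMP13 the change at 7 days against 90 min was −1.42 (SE 0.13), and MMP7 was 5.28-fold higher at 7 days than in the knockdown. The fold of MMP7 is a description, because the gene passed the filter with 0 knockdown libraries over the cutoff. Between the knockdown and 90 min, MMP13 was higher by 2.50 (SE 0.11) and MMP7 changed by −1.62 (SE 0.42), with 14.1% of all genes called (6.54% higher and 7.60% lower) and 43.6% without overlap. This change of MMP7 has the same limit from the filter. With sequencing lane in the model it was −1.96 and no longer called, a fit that rests on knockdown replicate 1, so that no p is given.

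Levels of different genes were compared per kilobase of the deposited gene width. In untreated cells MMP13 made up 88.1 ± 5.80% of the summed CPM per kilobase of the 6 genes, (SD, n = 5), and at 90 min 88.4%, from 87.0 to 90.8%. At 7 days its share was 17.2 ± 3.21%, and MMP3 made up 63.6 ± 3.51%, MMP10 8.96 ± 1.02% and MMP1 6.19 ± 2.05%. In the knockdown MMP13 alone made up 97.9 ± 0.448%. The shares of MMP13 in the 7 days libraries, 11.9 to 20.7%, did not overlap those of untreated cells, 81.2 to 95.9%.

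The summed level itself was 2.99 ± 0.484 CPM per kilobase in untreated cells and 3.40 ± 0.452 at 90 min, with overlap. It was 6.66 ± 1.23 at 7 days and 17.3 ± 1.72 in the knockdown, both without overlap with any other group. Thus at 7 days MMP3 stood highest per kilobase, at 4.27 ± 1.01 CPM, against 1.12 ± 0.154 for MMP13. In the knockdown MMP13 stood at 17.0 ± 1.73 and MMP3 at 0.186 ± 0.0737 CPM per kilobase.

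**Figure D3:**
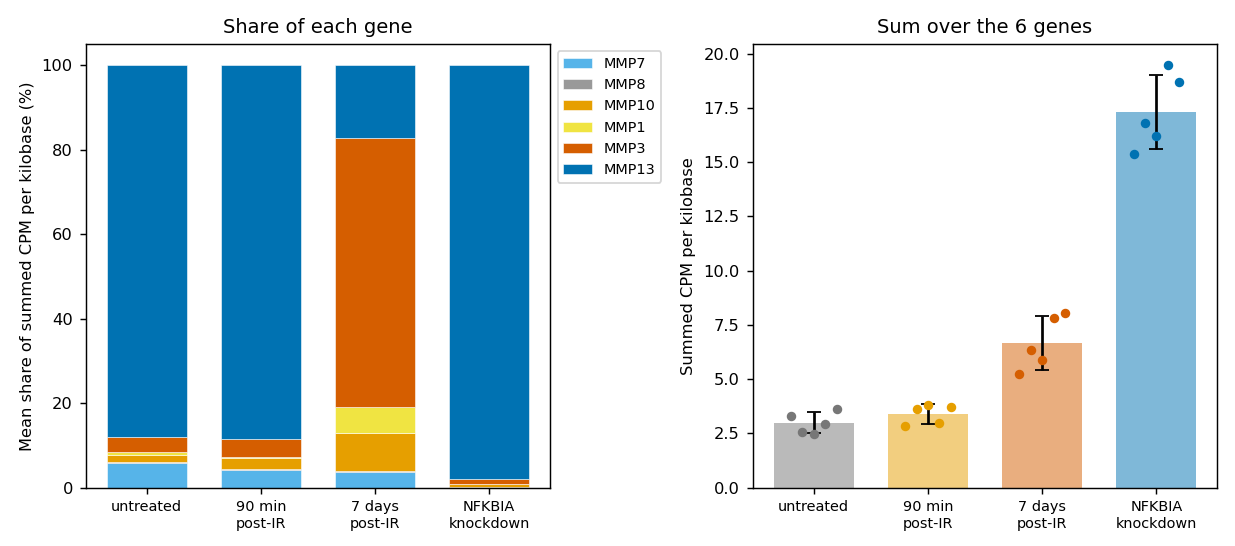
Left, mean share of each of the 6 genes in their summed CPM per kilobase in the 4 groups. Right, the summed CPM per kilobase, with points for libraries, bars for the mean of 5 and error bars for the SD. MMP13 holds 88.1% in untreated cells, 17.2% at 7 days and 97.9% in the knockdown, and the sum is highest in the knockdown (17.3).

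Libraries of different groups that shared a lane differed in the same directions at 7 days. In lane 4, the 90 min replicates 4 and 5 and the 7 days replicates 1 and 2 gave a log2 fold change of 4.56 for MMP3, 2.26 for MMP10, −1.44 for MMP13 and 1.04 for MMP7. In lane 5, the 7 days replicates 3 to 5 against the knockdown replicate 1 gave 4.53 for MMP3, 3.28 for MMP10, −3.74 for MMP13 and 3.01 for MMP7. These fits hold 2 libraries against 2 and 3 against 1, with the lone knockdown library assumed to vary like the others. MMP10 entered both, and MMP7 that of lane 5, only through 7 days libraries. For untreated cells only replicate 5 shared a lane with another group, at 90 min. There MMP3 was higher at 90 min by 6.36, a value that rests on its 0 counts in untreated replicate 5 and is no bound. With 1 untreated library the spread comes from the 90 min libraries, and no p is given. With lane as a term, fits of untreated cells against the others rest on that library, and the knockdown side on its replicate 1, so that no p is given. MMP13 then differed by −1.62 at 7 days and by 2.11 in the knockdown. MMP3 differed by 10.94 and 6.40, values that rest on the 0 counts in untreated replicate 5 and are no bounds.

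The summed level of markers of macrophages, a source of several of these proteases, was 28.99 to 34.7 CPM at 7 days, against 4.70 to 11.8 in untreated cells, 4.53 to 6.51 at 90 min and 4.61 to 5.65 in the knockdown. Of 7 markers 4 were tested, and 2 were called higher and 0 lower at 7 days (16.7% and 14.4% of all genes). The higher ones were CD68, a lysosomal protein, at 23.2 ± 1.67 CPM against 2.69 ± 2.03 in untreated cells (SD, n = 5), and ITGAM, an integrin chain, at 5.95 ± 0.245 against 2.17 ± 0.550. PTPRC and CSF1R were at 1.34 ± 0.233 and 0.761 ± 0.182 CPM at 7 days, against 1.05 ± 0.331 and 0.605 ± 0.189, and were not called. The other 3 were not tested, with 7 to 14 counts of CD14 at 7 days against 0 to 7 in untreated cells, 1 to 4 of LYZ against 0 or 1, and 0 or 1 of AIF1 against 0. Their part in the results at 7 days was not tested. All libraries come from cultures of 1 cell line, and in such RNA the number of cells with a transcript and its level per cell cannot be told apart.

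Of 10 chromosomal neighbours of the cluster 9 were measured. MMP20, the protease of tooth enamel, held 0 to 3 counts in any library, and MMP27 was at 0 counts outside the 7 days group and reached 1 count within it. Of the 7 neighbours tested, 2 were called higher and 0 lower at 7 days (16.7% and 14.4% of all genes), and 2 higher and 1 lower in the knockdown (5.18% and 7.53% of all genes). Their median log2 fold change was 0.49 at 7 days and 0.12 in the knockdown, where the medians of all genes were 0.01 and −0.01.

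On the side of MMP7, BIRC3, an inhibitor of apoptosis and target of NF-κB, was at 31.96 CPM in untreated cells, 90.1 at 90 min, 101 at 7 days and 19.3 in the knockdown. Its log2 fold change was 1.497 at 90 min, 1.66 at 7 days and −0.72 in the knockdown (SE 0.08 each), all called by edgeR. YAP1, a coactivator of the Hippo pathway, changed by 0.36 at 7 days and 0.37 in the knockdown. BIRC2, a paralog of BIRC3, changed by 0.49 and 0.12, and TMEM123 by −0.31 and −0.09, none of these past the fold threshold.

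On the side of MMP13, DCUN1D5 changed by 0.03 at 7 days and −0.13 in the knockdown and was not called. DYNC2H1, a dynein chain of cilia, was called higher in both (0.70 and 0.51, SE 0.13 each). PDGFD, a growth factor of the PDGF family, was called in the knockdown (0.58, SE 0.09) and stayed just under the fold threshold at 7 days (0.50). WTAPP1 was not analysed here.

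**Figure D4:**
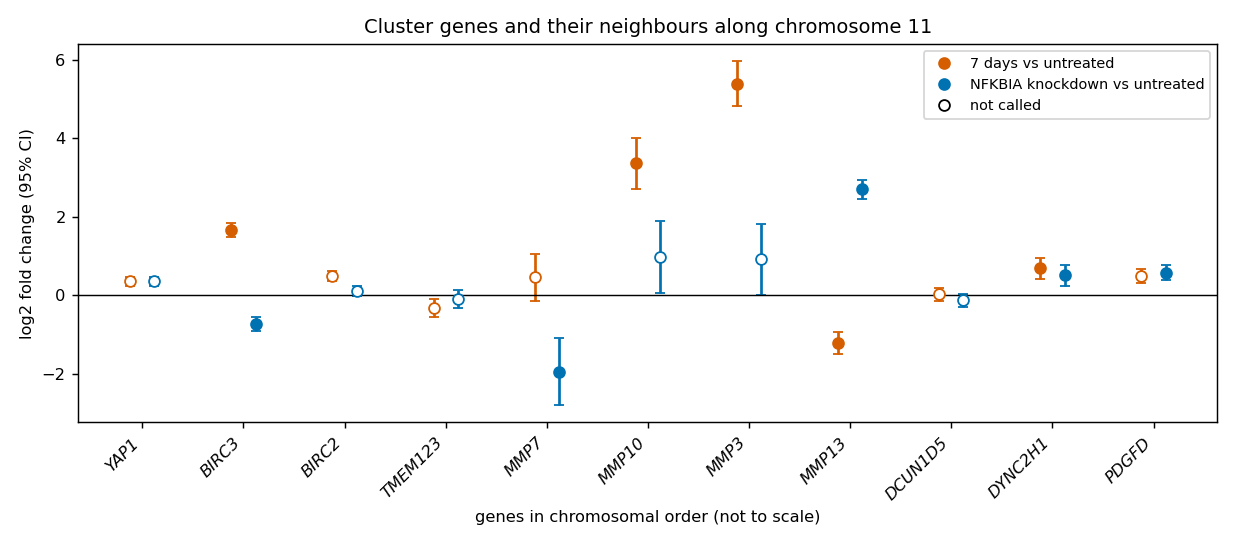
Log2 fold change against untreated cells, with 95% confidence intervals, of the tested genes in their order along chromosome 11 (not to scale), at 7 days and in the NFKBIA knockdown; filled points were called. Between TMEM123 and DCUN1D5 the cluster genes range from −1.21 to 5.39 at 7 days, whereas the neighbours range from −0.31 to 1.66. MMP1 is left out because its fold is a lower bound.

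Other metalloproteinases were measured for comparison, 15 of 16 listed and 9 of them tested. At 7 days 2 were higher and 1 lower, and in the knockdown 1 was higher and 2 lower. Of all genes 16.7% were higher and 14.4% lower at 7 days, and 5.18% and 7.53% in the knockdown. The list had median log2 fold changes of 0.14 and −0.15. MMP9, the gelatinase B, was lower in both, from 191 ± 9.63 CPM in untreated cells to 103 ± 4.38 at 7 days and 39.4 ± 3.11 in the knockdown, changes of −0.90 and −2.28. MMP13 and MMP9 thus stood apart in the knockdown, where MMP13 was higher and MMP9 lower. MMP16 and MMP14, membrane-bound activators of other proenzymes, rose by 0.82 and 0.57 at 7 days and were not called in the knockdown (0.16 and −0.11).

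Of the 7 inhibitors listed 5 were tested, with 2 higher and 0 lower at 7 days (16.7% and 14.4% of all genes) and 0 higher and 2 lower in the knockdown (5.18% and 7.53% of all genes). TIMP1, an inhibitor of most members of the cluster, was at 3482 ± 154 CPM at 7 days against 1660 ± 176 in untreated cells, a change of 1.07 (SE 0.08). A2M, a protease trap of plasma, changed by 1.35 at 7 days and −1.06 in the knockdown. The median of the list was −0.12 at 7 days and −0.21 in the knockdown.

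Genes that activate the proenzymes or restrain the activators were higher at 7 days in 6 of 10 tested, with 0 lower (16.7% and 14.4% of all genes) and a median of 0.61. In the knockdown 1 was higher and 2 lower (5.18% and 7.53% of all genes), with a median of 0.17. SERPINB2, an inhibitor of plasminogen activators, passed the filter only through its 7 days libraries and had to differ there, although it is counted among the 6. It held 0 or 1 counts in untreated libraries and 13 to 20 at 7 days, at least 5.53-fold higher. ST14, the protease matriptase, rose by 1.19. PLAT, the tissue plasminogen activator, rose by 0.81. In the knockdown ST14 was higher (0.71), and PLAT was not called (0.30).

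Among 17 matrix substrates tested, 3 were higher and 5 lower at 7 days (16.7% and 14.4% of all genes), and 0 were higher and 8 lower in the knockdown (5.18% and 7.53% of all genes). The medians were 0.01 and −0.51. COL3A1, a fibrillar collagen that collagenases cut, fell from 213 CPM in untreated cells to 19.1 at 7 days, a change of −3.49 (SE 0.12), and stood at 214 in the knockdown. ACAN, the aggrecan of cartilage, changed by −3.28 at 7 days and −1.38 in the knockdown. COL5A2 changed by −1.54 and −0.51, called in both. SPP1, osteopontin, rose by 2.64 at 7 days and was not called in the knockdown (−0.12).

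Of 26 transcription factors of the AP-1, ETS, NF-κB and related families, all tested, 5 were higher and 2 lower at 7 days (16.7% and 14.4% of all genes). In the knockdown 0 were higher and 3 lower (5.18% and 7.53% of all genes), and at 90 min 6 were higher and 1 lower (2.08% and 1.57% of all genes). The medians were 0.04 at 7 days, −0.31 in the knockdown and 0.16 at 90 min, against −0.03 for all genes at 90 min. FOSB, an AP-1 subunit, rose by 2.09 at 7 days and 1.97 at 90 min, and ATF3, a partner of AP-1 subunits, by 0.93 and 2.60. ELF3, an ETS factor of epithelia, was at 0.518 CPM at 7 days against 0.183 in untreated cells, counted among the 5 although it passed the filter only through its 7 days libraries. ETS2 changed by −0.71. In the knockdown ATF3 was lower (−0.62), and FOSB, ELF3 and ETS2 were not called.

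Among the cytokines, growth factors and receptors that induce these proteases, 26 of 28 were tested. At 7 days 5 were higher and 5 lower (16.7% and 14.4% of all genes), in the knockdown 3 and 3 (5.18% and 7.53% of all genes), and the medians were 0.18 and −0.03. IL1A, an inducer of MMP1, MMP3 and MMP13 in many cell types, was at 0.498 CPM in untreated cells, 9.71 at 7 days and 2.19 in the knockdown, changes of 4.23 (SE 0.19) and 2.08 (SE 0.22). IL1B held 0 or 1 counts in untreated libraries and 10 to 26 at 7 days, at least 5.39-fold higher, and 0 to 2 counts in the knockdown. It passed the filter only through its 7 days libraries and had to differ there, although it is counted among the 5. IL6 rose by 2.63 at 7 days and was not called in the knockdown (−0.14). PDGFB, a growth factor chain, changed by −1.73 and −1.53.

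The genes whose log2 CPM followed each cluster gene most closely over all 20 libraries were listed as a description. The libraries share groups and lanes, so that each coefficient mostly follows the 4 group means. MMP13 was followed by UNC5C (r = 0.978), SCN3A (0.975) and NGFR (0.972), and NGFR, for example, stood at 8.66, 9.30, 4.66 and 22.7 CPM in untreated, 90 min, 7 days and knockdown cells. MMP3 was followed by SDC1 (0.987), BLCAP (0.986) and PLEKHB2 (0.981), with SDC1, a cell-surface proteoglycan, at 87.7, 97.5, 272 and 107 CPM in the same order. MMP10 was followed by PYHIN1 (0.957), TG (0.952) and ITIH5 (0.952), and MMP1 by SRPX (0.978), SRPX2 (0.975) and TIGD7 (0.970).

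MMP7 was followed by GSPT1 (0.894), HTR1F (0.884) and NQO1 (0.879). Within the cluster the coefficient was 0.937 for MMP3 and MMP10, 0.928 for MMP3 and MMP1 and 0.898 for MMP10 and MMP1. The coefficient of MMP13 was −0.859 with MMP7, −0.661 with MMP1 and −0.551 with MMP3. MMP1 and MMP10 passed the filter only through their 7 days libraries, and MMP7 with 0 knockdown libraries over the cutoff. Coefficients with these genes were partly fixed by that and are a description only.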

How the data were processed

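RNA-seq of 20 U2-OS libraries was analysed. The authors deposited whole-number read counts per gene without normalization, and a gene width in bases from which CPM per kilobase was computed. The submitters' processing notes name bcl2fastq, Trimmomatic, STAR 2.4.2a and hg19. The counter, the annotation and the strand setting were not given in the sources used here. Reads on genes ranged from 22535659 to 40390961 per library, and intervals and floors cover counting error or the spread between these libraries only.

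The tool was edgeR 4.0.16 under R 4.3.3. Genes were filtered by filterByExpr (minimum count 10), library sizes scaled by TMM, and all 20 libraries were fitted in 1 quasi-likelihood model whose only terms were the groups. The 6 pairs of groups were compared, with Benjamini-Hochberg adjustment over 14992 genes, and genes were called at an absolute log2 fold change above 0.5 and an adjusted p under 0.05. Standard errors come from the F statistic. For log2 CPM the prior count was 2. Folds against a group with no library over 3 counts were computed against 3 counts per library and are lower bounds. For 5 libraries against 5 the smallest two-sided exact permutation p is 0.00794. The lowest chi-square per degree of freedom between libraries of a group was 1.75, so none was counted as a duplicate. The test was checked on simulated data.

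Groups were taken from the labels. The members and lists were chosen with earlier results of these data known. The 7 members were all accounted for. Of each list at most the 4 called genes with the largest absolute log2 fold change at 7 days against untreated were named, in the neighbours every gene, and for likeness the 3 genes with the highest Pearson r. For 1 gene that this rule names, the values are not reported here. Genes of the marker lists and NFKBIA were named for the checks. S100A8, S100A9 and the single epithelial and osteoblast markers were named after their values were seen, as were the values at 90 min of FOSB and ATF3. Gene order and overlaps were taken from GENCODE 29, a build other than that of the counts, so no coordinates were taken from it. The alternatives were other scalings (RLE, upper quartile, library size alone), DESeq2 1.42.0, no filter or a stricter one, only the groups compared, sequencing lane or replicate number as a factor, fits within a lane, other thresholds, another prior count and leaving out each library. Figures were drawn with matplotlib.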

Additional observations from a re-analysis of the deposited data

Results flagged for a closer look

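The change after IR differed between the time points by edgeR's test of 7 days against 90 min, in which the shared untreated libraries drop out. The difference was 4.81 on the log2 scale for MMP3, 0.78 for MMP7 and −1.42 for MMP13. MMP10 (2.78) and MMP1 (at least 9.36-fold higher at 7 days) entered the test only through their 7 days libraries and had to differ there, so their values are a description. That of MMP7 was the only one whose libraries overlapped, and it lost its call in 3 of the fits that left out a library and with sequencing lane as a factor (1.06, edgeR, adjusted p = 0.0692), and kept it within lane 4 (1.04, edgeR, adjusted p = 0.0206).

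For MMP8, 90 min replicate 5 (log2 CPM −3.09, from 2 counts) and knockdown replicate 5 (log2 CPM −3.38, from 1 count) stood apart from the other 4 libraries of their group by Dixon's criterion. Of 24 groups of values examined 2 were marked in this way, and chance marks about 1 in 20. Both values differ from the rest by 1 read.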

How the results depend on the processing

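Depth limits MMP1, MMP7, MMP8 and MMP10, with at most 43 counts in any library, and untreated cells are tied to the other groups within lanes only through untreated replicate 5. Across all alternatives the calls for MMP13 and MMP3 kept their direction and their side of the threshold in 157 of 157 and 95 of 95 fits, although with lane as a factor the log2 fold change of MMP3 at 7 days against untreated moved from 5.39 to 10.94 (untreated replicate 5 held 0 counts), and those for MMP7 in 117 of 124. MMP7 gave no value with only the groups compared for the knockdown against untreated or 90 min, because it did not pass the filter. With lane as a factor the number of cluster genes called became 1 at 90 min against untreated (MMP3) and 1 each for the knockdown against untreated and against 90 min (MMP13). For 7 days against 90 min it became 4 in place of 5, without MMP7 (edgeR, adjusted p = 0.0692), and within lane 3, with 1 untreated library, it was 1 at 90 min (MMP3). With only the groups compared it was 1 for each of those knockdown comparisons. Log2 fold changes that turned with lane as a factor were 0.24 for MMP7 and −0.20 for MMP13 at 90 min against untreated and −1.01 for MMP10 in the knockdown against 90 min. Within lane 3 those of MMP7 and MMP13 at 90 min were 0.23 and −0.20. None of these was called. By the layout of the lanes, fits of untreated cells with lane rest on untreated replicate 5, and those of the knockdown on knockdown replicate 1, the only library of its group in a lane with another group. The cause was not tested. For MMP8 the exact permutation p at 7 days against untreated was 0.0556 with a prior count of 0.5 (n = 5 each).

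Leaving out 1 library gave 4 to 5 called cluster genes at 7 days against untreated and against 90 min, and 2 to 3 in the knockdown against untreated. It left the other counts unchanged, at 0 for 90 min against untreated, 5 for 7 days against the knockdown and 2 for the knockdown against 90 min. The lower bound for MMP1 at 7 days ranged from 7.24 to 8.95 against untreated, 8.39 to 9.88 against 90 min and 7.29 to 8.59 against the knockdown.

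Among all genes, 548 were called at 90 min against untreated, 4657 at 7 days against untreated and 1906 in the knockdown against untreated. The numbers were 3820 and 4088 for the first and the last with lane as a factor. By adjusted p alone they were 3191, 9620 and 6078, and with a log2 fold change above 1 they were 90, 1826 and 524. For 7 days against 90 min, 7 days against the knockdown and the knockdown against 90 min they were 4398, 3857 and 2121, by adjusted p alone 9131, 8609 and 6245, and above 1 they were 1626, 1531 and 633. The last was 1186 with lane as a factor, and 90 min against untreated was 3700 within lane 3.

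The replicate numbers share only a name. Same-numbered libraries had correlations of deviations from −0.25 to 0.12, and not every library correlated best with its own number. With the replicate number as a block, 0, 4, 2, 5, 5 and 2 cluster genes were called in the 6 comparisons, the same counts as without it, and 496, 4628 and 1849 genes in all at 90 min, 7 days and in the knockdown against untreated.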
